A study of Mus musculus with 15 samples.

Results

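The genes described here encode the main building blocks of the basement membrane: the collagen IV chains Col4a1 and Col4a2, the basement membrane zone collagens Col15a1 and Col18a1, the laminin chains Lamb1 and Lamc1, and nidogen-1 (Nid1). They were taken as every probe set (a group of oligonucleotides designed against 1 transcript) that the array annotation gives to 1 of these 7 symbols alone. That made 13 probe sets of 12422, for 7 genes of the 8251 that have such a probe set. Of the 13, 9 were bright enough to be among the 7453 probe sets tested.

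The study measured total RNA of mouse left ventricle on 15 arrays to study hypertrophy of the pressure-overloaded heart. Each label gives sham or TAC, which in this field stands for transverse aortic constriction, a surgical narrowing of the aorta that raises the load on the left ventricle. There were 3 female sham, 6 male sham, 3 female TAC and 3 male TAC hearts. The sources used here do not give genotype, strain, age or the time from operation to sampling, nor whether each array held 1 animal.

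The basement membrane is a thin sheet of extracellular matrix that surrounds each cardiomyocyte and underlies the endothelium of each capillary. Collagen IV and laminin each polymerise into a network, and nidogen and the proteoglycan perlecan link the networks. Cells hold the sheet through integrins and dystroglycan, so in the heart it lies on the path by which contractile force passes to the matrix.

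The operation labels were checked on natriuretic peptide A (Nppa), a classical hypertrophy gene. It rose by 2.83 ± 0.22 on the log2 scale with TAC averaged over the sexes (SE, limma adjusted p = 1.29e-06). Among the other hypertrophy genes checked, Acta1 (2.11) and Ankrd1 (1.10) also passed a limma adjusted p of 0.05. Nppb, at 1.18 (limma adjusted p = 0.125), and Myh7, at 0.03 (limma adjusted p = 0.948), did not. The name of the Myh7 probe set ends in _f_at, so it may bind related transcripts. Its mean intensity was 4661 in female and 4551 in male sham hearts, and that of Myh6 was 5450 and 5241. Whether the probe set reads Myh7 alone was not tested, so its value does not show whether Myh7 changed. All 6 measured cardiomyocyte markers (Myh6, the troponins and relatives) were tested, and their summed intensity ranged from 25701 to 32335 over the 15 arrays. The sum of the atrium markers Myl7 and Myl4 ran from 286 to 456 in female sham and 227 to 306 in female TAC hearts. In males it ran from 73.5 to 527 in sham and 152 to 506 in TAC hearts. Neither marker passed with TAC (limma adjusted p = 0.994 and 0.876). Whether atrial tissue differed between hearts, and its part in the Nppa values, was not tested. Values are deposited intensities in arbitrary units. The array medians lay between 21.2 and 26.7, values under 20 were set to 20 before log2 was taken, and 42.4% to 48.4% of probe sets on an array lay below that floor. Nothing states that replicates were separate animals, so p-values measure the spread between these samples.

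With TAC, none of the 9 tested basement membrane probe sets passed an adjusted p of 0.05 in the limma fit. This held for the effect averaged over the sexes, where 0.322% of all tested probe sets passed, for the effect in females (0.0805%) and for that in males (0.134%). In the averaged effect 7 of the 9 lay above 0, against 41.8% of all tested probe sets, and their median log2 change was 0.10 against -0.03. The 9 belong to 7 genes, with Col18a1 and Lamb1 represented by 2 tested probe sets each. In females 6 of 9 lay above 0 (40.6% of all tested) and in males 8 of 9 (47.2%), with medians of 0.06 and 0.23. At an unadjusted p of 0.05, 1 of the 9 passed in the averaged effect (Nid1), against 7.51% of all tested probe sets. In females 0 of the 9 passed at that level (4.59% of all), in males 1, Col4a1 (6.2%), and in the difference between the sexes 0 (2.56%).

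The TAC and sham values of all 9 overlapped in both sexes. Of all tested probe sets, 3.02% had every female TAC heart above every female sham heart and 5.49% had every one below. In males these shares were 1.62% and 1.34%. These are amounts of RNA in whole ventricle, in which fewer cells of a type and less RNA per cell cannot be told apart.

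**Figure D1:**
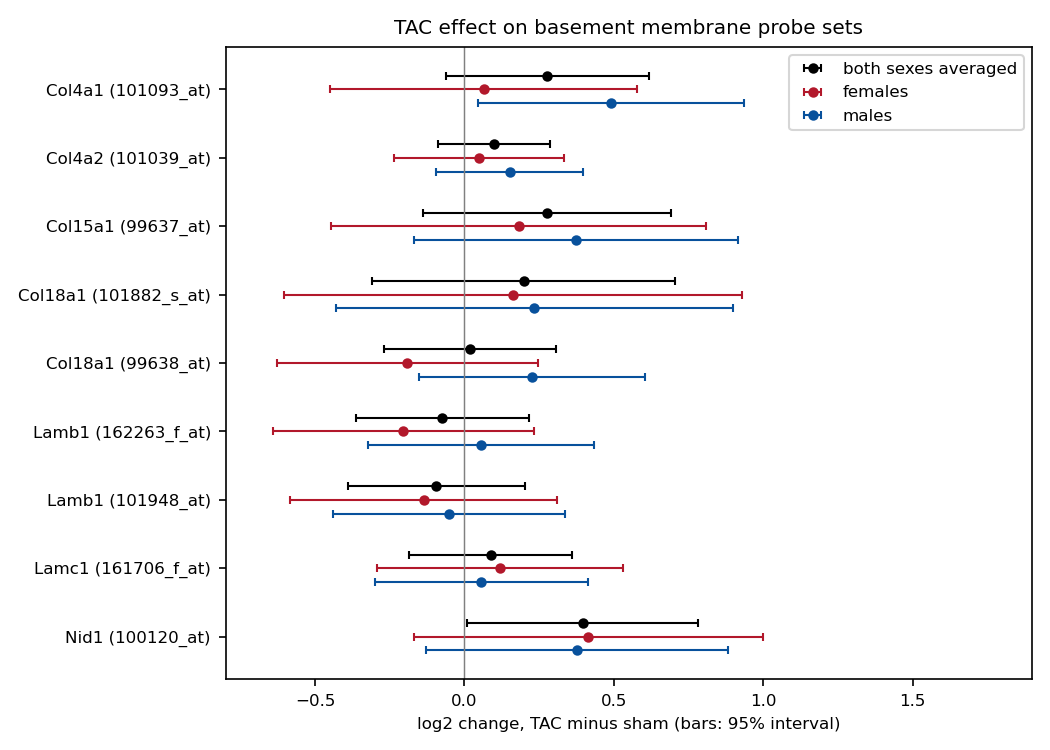
Log2 change with TAC (TAC minus sham) for the 9 tested basement membrane probe sets, averaged over the sexes (black), in females (red) and in males (blue), with 95% intervals from the limma fit as bars. The averaged interval of Nid1, from 0.01 to 0.78, and the male interval of Col4a1, from 0.05 to 0.93, lie above 0 before adjustment, and no probe set passed after it.

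Collagen IV is the scaffold of the sheet, a network of triple helices built mostly from the chains that Col4a1 and Col4a2 encode. Both genes were among the bright ones: by mean log2 intensity Col4a2 was in the top 1.01% and Col4a1 in the top 3.77% of the probe sets. The genes lie head to head on chromosome 8 and are read in opposite directions from a shared promoter region. Their RefSeq promoter windows (assembly GRCm38.p6, 250 bases before to 50 after each start) are printed to show how closely the pair is arranged. The capitals mark the 78 bases that both windows hold, written on opposite strands, and the annotated starts are 21 bases apart. The minus-strand start of Col4a1 (11312826) has the higher position and the plus-strand start of Col4a2 (11312805) the lower. The annotated transcripts thus overlap at their first bases. All capitals lie within the 50 bases after the start of Col4a1, of Col4a2 or of both. The Col4a1 window is chr8:11312777-11313076 on the minus strand, and the Col4a2 window is chr8:11312555-11312854 on the plus strand.
Col4a1: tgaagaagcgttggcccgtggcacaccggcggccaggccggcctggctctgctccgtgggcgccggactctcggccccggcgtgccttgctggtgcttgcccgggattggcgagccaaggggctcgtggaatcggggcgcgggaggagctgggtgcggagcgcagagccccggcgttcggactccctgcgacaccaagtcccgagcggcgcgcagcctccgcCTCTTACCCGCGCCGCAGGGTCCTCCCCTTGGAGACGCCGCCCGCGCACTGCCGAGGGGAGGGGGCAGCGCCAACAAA
Col4a2: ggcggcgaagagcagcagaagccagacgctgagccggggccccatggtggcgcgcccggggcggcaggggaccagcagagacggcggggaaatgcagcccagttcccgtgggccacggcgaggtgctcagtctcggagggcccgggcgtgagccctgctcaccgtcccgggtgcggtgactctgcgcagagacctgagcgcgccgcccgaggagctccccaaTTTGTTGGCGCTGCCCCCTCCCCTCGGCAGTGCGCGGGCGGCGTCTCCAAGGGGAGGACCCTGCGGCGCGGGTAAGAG

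Several short motifs were searched on both strands of these windows. The letters GGGCGG, a GC box, occurred 1 time in the Col4a1 window and 3 times in the Col4a2 window, with 1 match in the shared bases, and 35.7% of all 32851 windows held it. CCAAT occurred 1 time in each window, in Col4a1 outside the shared bases and in Col4a2 across their edge, and 37.4% of all windows held it. The C and T rich CCCTCCCC occurred 1 time in the shared bases and is held by 10.8% of windows. TATAAA was found in neither window and in 13.6% of all. No match overlapped that of another motif. The GC content was 74% for Col4a1 and 73.7% for Col4a2, against a median of 52.7%. RefSeq windows were matched for 6 of the 7 genes; Nid1 also held CCCTCCCC, and none of the 7 windows held TATAAA.

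Col4a1 read 265, 323 and 212 in the female sham hearts and 274, 344 and 220 in the female TAC hearts. The male sham hearts ran from 138 to 286 with a median of 198, and the male TAC hearts read 257, 297 and 275. In females the groups covered nearly the same range, and within the same-numbered pairs TAC was above sham by 0.05, 0.09 and 0.06 on the log2 scale. All 3 pairs lay above 0 in 9.39% of all tested probe sets, and in 1 of the 9, Col4a1. In males the TAC values lay in the upper part of a wide sham range, with the highest sham heart among them. The averaged log2 change was 0.28 ± 0.16 (SE; 95% interval -0.06 to 0.62; limma adjusted p = 0.754). It was 0.06 ± 0.24 in females and 0.49 ± 0.21 in males, where the unadjusted p was 0.0327 and the limma adjusted p 0.723. With the female pairs as a block, the adjusted p in females was still 1. The test of the difference between the sexes gave -0.43 ± 0.32 for females minus males (interval -1.11 to 0.25, limma adjusted p = 1.00), so an unequal response of the sexes was not resolved.

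Col4a2 varied little. It read 569, 653 and 579 in female sham, 642, 614 and 603 in female TAC and 559, 598 and 741 in male TAC hearts, while male sham hearts ran from 527 to 603 with a median of 572. A single male TAC heart, replicate 6, stood above every other array, and the other 5 TAC hearts lay within the sham range of their sex. The averaged change was 0.10 ± 0.09 (interval -0.09 to 0.29; limma adjusted p = 0.862), which on the linear scale is 1.07-fold. Its interval is the narrowest among the 9.

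No correlation between the pair was detected in the sham hearts. Across the 9 sham arrays, log2 intensities of Col4a1 and Col4a2 gave a Pearson r of 0.22 (exact permutation p = 0.588) and a Spearman rho of -0.13 (exact permutation p = 0.744). Without the 2 arrays farthest from the median, r was -0.28. The male sham arrays with the lowest Col4a1 (138 and 160) had Col4a2 values of 581 and 603, in the upper part of that group. The log2 ratio of Col4a1 to Col4a2 within an array differed by 0.18 between TAC and sham (exact permutation of operation within sex, two-sided p = 0.310; 3 ratios tested, adjusted p = 0.741), in a comparison added after the data were seen.

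**Figure D2:**
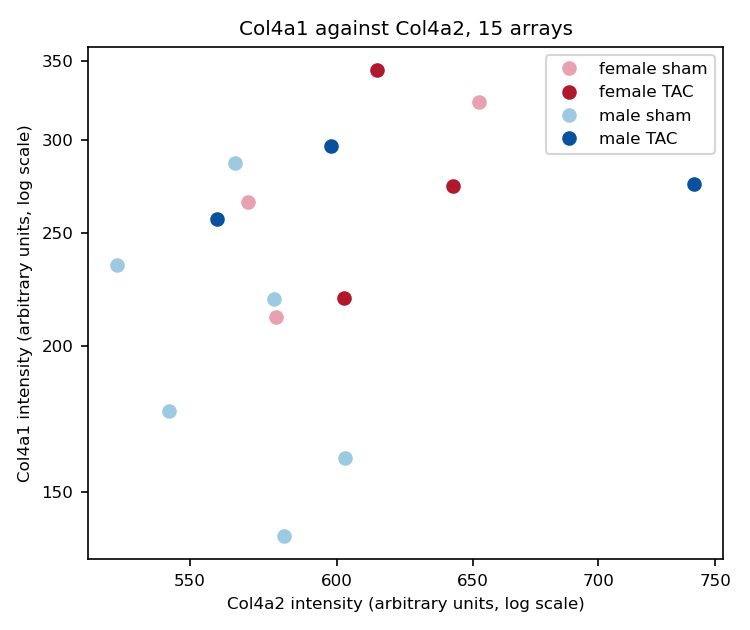
Col4a1 intensity (vertical) against Col4a2 intensity (horizontal) on each of the 15 arrays, both in arbitrary units on log axes, coloured by sex and operation. Col4a1 spans 138 to 344 while Col4a2 spans 527 to 741, and over the 9 sham arrays r was 0.22.

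Lamb1 and Lamc1 encode the laminin beta-1 and gamma-1 chains, which join an alpha chain in the cross-shaped laminin trimer. Both had values with TAC close to those of sham hearts. The brighter Lamb1 probe set (162263_f_at) read 48.7, 65.4 and 56.3 in female sham and 50.5, 39.8 and 58.4 in female TAC hearts. In males it ran from 38.5 to 69.6 in sham, with a median of 56.1, and read 57.9, 63.0 and 49.1 with TAC. The male TAC values all lay inside the sham range, and a single female TAC heart lay below the female sham values. The averaged change was -0.07 ± 0.14 (interval -0.36 to 0.22; limma adjusted p = 0.936). The other Lamb1 probe set (101948_at) gave -0.09 ± 0.14 (limma adjusted p = 0.919), on values from 25.3 to 51.2.

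The tested Lamc1 probe set (161706_f_at) read 49.2, 54.1 and 67.9 in female sham and 47.3, 76.0 and 64.4 in female TAC hearts. Male sham hearts ran from 49.2 to 69.5 with a median of 51.1, and male TAC hearts read 47.9, 60.2 and 63.8. In females the TAC hearts reached both below and above the sham range, and in males 1 lay just below it and the others inside. The change was 0.09 ± 0.13 (interval -0.18 to 0.36; limma adjusted p = 0.919). A further Lamc1 probe set was below the floor on all 15 arrays, with a highest value of 14.3, and was not tested. Within arrays, the log2 ratio of Lamb1 to Lamc1 differed by -0.16 between TAC and sham (exact permutation p = 0.494, adjusted p = 0.741).

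Nidogen-1, the link between the collagen IV and laminin networks, had the highest averaged change among the 9. In males Col4a1 had a higher one. Nid1 read 19.4, 33.3 and 39.6 in female sham and 32.3, 51.0 and 38.0 in female TAC hearts. Male sham hearts ran from 18.7 to 42.8 with a median of 30.2, and male TAC hearts read 38.0, 40.6 and 34.1. Every male TAC heart lay above 5 of the 6 male sham hearts, and the highest male sham heart lay above all 3 of them. In females 1 sham heart was below all TAC hearts, and the other values interleaved. The averaged change was 0.40 ± 0.18, or 1.32-fold (interval 1.01 to 1.72). Its unadjusted p was 0.0453 and its limma adjusted p 0.640, and it ranked 527 by p among the tested probe sets. The size of the change was similar in both sexes, 0.41 ± 0.28 in females and 0.38 ± 0.24 in males. The gene was dim, with 2 sham values below the floor, and leaving out each array in turn gave 0.25 to 0.50.

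**Figure D3:**
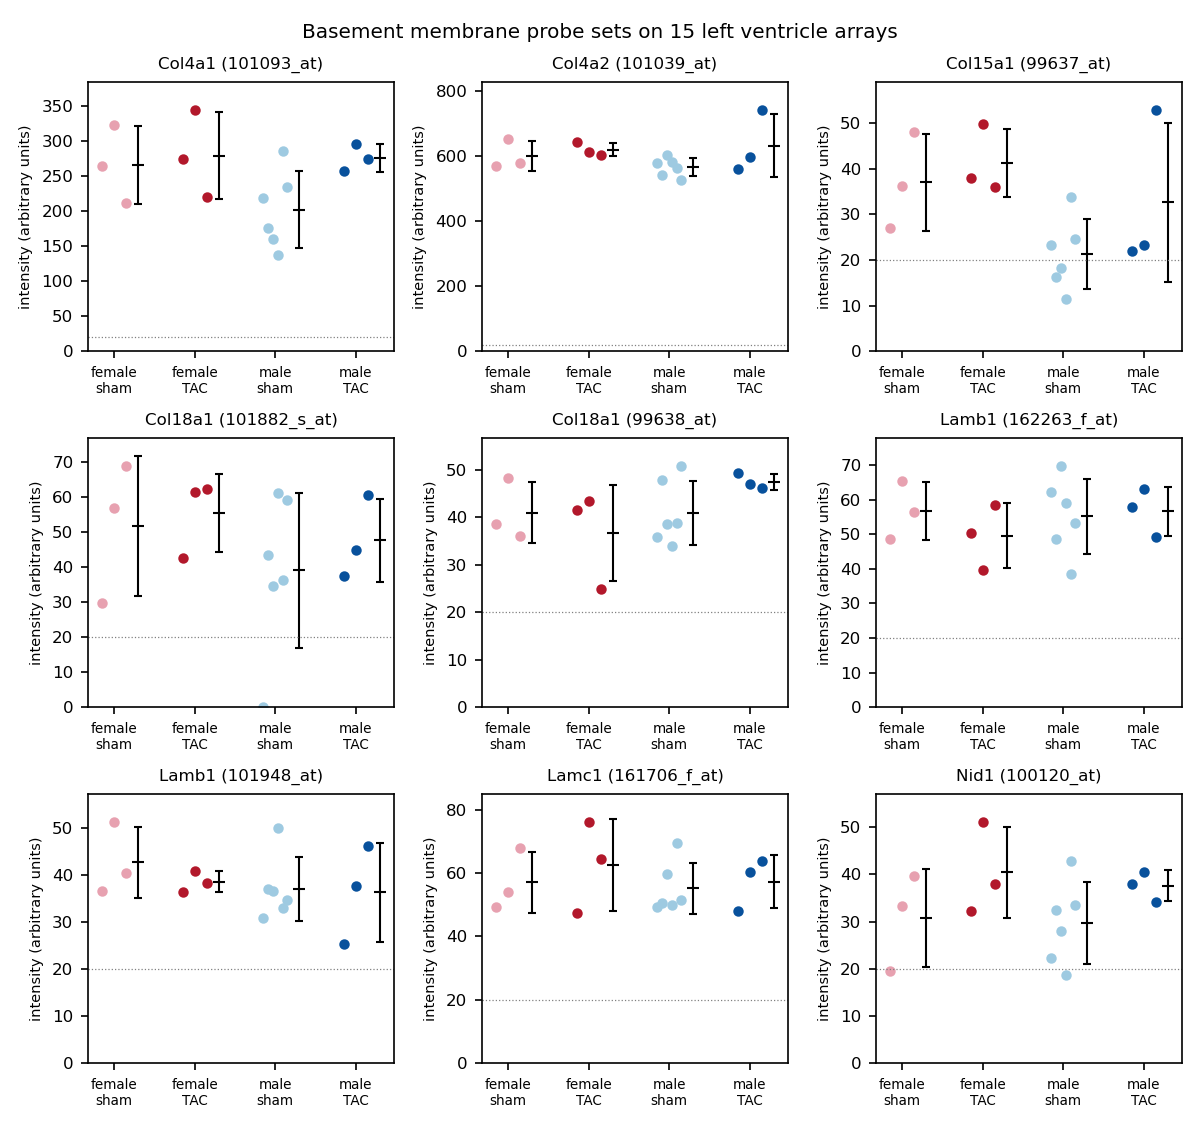
Deposited intensity (arbitrary units) of each tested basement membrane probe set on every array, by sex and operation; points are arrays, black ticks and bars beside them are the group mean ± SD, and the dotted line is the floor of 20. TAC and sham points overlap within each sex in every panel, and 3 points of Col15a1, 2 of Nid1 and 1 of Col18a1 lie under the floor.

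Col15a1 and Col18a1 encode the multiplexins, collagens XV and XVIII, which sit at the outer face of basement membranes. The C-terminal fragment of collagen XVIII is endostatin, known as an inhibitor of angiogenesis. Col15a1 read 26.9, 36.1 and 48.0 in female sham and 38.1, 49.7 and 36.0 in female TAC hearts. In males it ran from 11.5 to 33.8 in sham, with a median of 20.8, and read 22.03, 23.2 and 52.8 with TAC. Of the male TAC hearts only replicate 6 lay above the male sham range, and 3 of the 6 male sham hearts lay below the floor. The averaged change was 0.28 ± 0.20 (interval -0.14 to 0.69; limma adjusted p = 0.810). The male value of 0.37 ± 0.26 rested on replicate 6, and without it became -0.03. The averaged change without that array was 0.07.

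Of 5 Col18a1 probe sets, 2 were tested. The brighter, 101882_s_at, read 29.7, 56.9 and 68.7 in female sham and 42.6, 61.5 and 62.2 in female TAC hearts, with male sham hearts from 0 to 61.0 (median 39.8) and male TAC hearts at 37.5, 44.9 and 60.5. Its sham hearts varied more than they differed from TAC, and 1 male sham heart was listed at 0. The change was 0.20 ± 0.24 (interval -0.31 to 0.71; limma adjusted p = 0.895). It was 0.02 without female sham replicate 1, 0.10 without male sham replicate 4, 0.11 without male TAC replicate 6, and 0.37 with the lower floor. The other, 99638_at, had male TAC values of 46.1 to 49.3 in the upper part of the male sham range of 34.0 to 50.7, and a female TAC heart at 24.99 below every other array. Its changes were -0.19 ± 0.21 in females and 0.23 ± 0.18 in males, and 0.02 ± 0.14 averaged (limma adjusted p = 0.989). The remaining 3 Col18a1 probe sets stayed below the floor on all arrays, with highest values of 12.7, 14.1 and 14.2. The ratio of Col15a1 to Col18a1 within arrays differed by 0.08 (exact permutation p = 0.748, adjusted p = 0.748).

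Set among all tested probe sets by signed averaged change, from most negative to most positive, Nid1 stood at percentile 98.5 and Col4a1 and Col15a1 both at 96.7. The Lamb1 probe sets stood at 38.2 and 33.5, and Lamc1 at 79.3. These positions describe the signed change alone and carry no test, and that of Col15a1 rests on male TAC replicate 6.

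**Figure D4:**
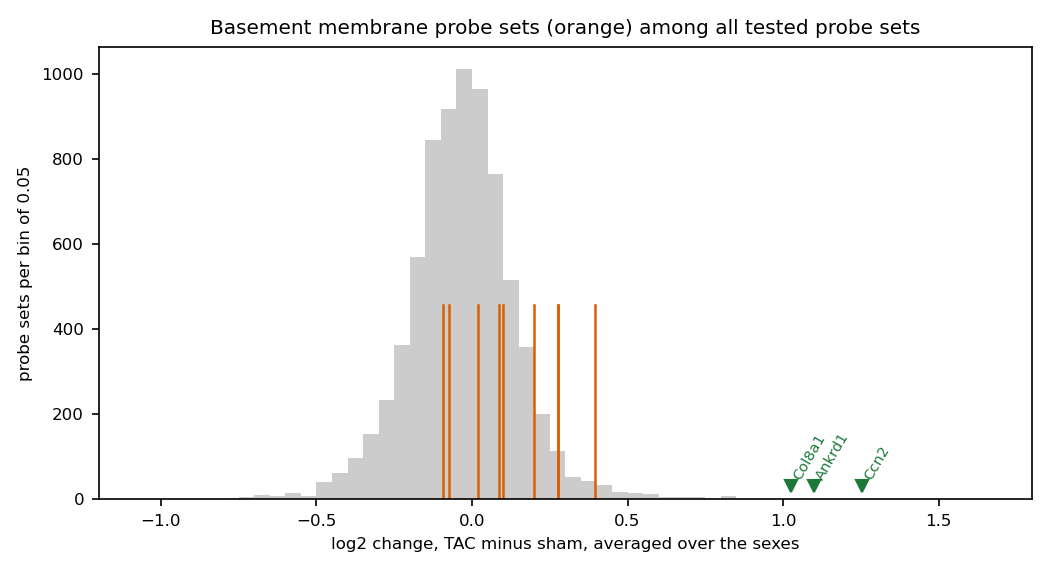
Averaged log2 change with TAC of all 7453 tested probe sets (grey bars, number per bin of 0.05 log2 units) with the 9 basement membrane probe sets as orange lines; green triangles mark Col8a1, Ankrd1 and Ccn2, genes that rose. Genes beyond the axis, such as Nppa at 2.83, are not shown. The orange lines run from -0.09 to 0.40, inside the bulk and its right shoulder.

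The sham hearts of the sexes were also compared. All 9 tested probe sets had a higher mean log2 value in female than in male sham hearts, with a median difference of 0.08. Of all tested probe sets 60.9% did, with a median of 0.05. None passed in limma, and 0% of all tested probe sets did. The sign turned in some alternatives or with an array left out for Col18a1 99638_at, Lamc1, Nid1 and Lamb1 162263_f_at. It held for the other members of the 9. Before adjustment 1 of the 9, Col15a1, was under 0.05, against 4.71% of all. Col15a1 had the largest difference, 0.64 ± 0.26 (interval 0.09 to 1.18, unadjusted p = 0.0245, limma adjusted p = 0.974), and Col4a1 differed by 0.42 ± 0.21 (limma adjusted p = 0.974). Endothelial markers lay on the same side in 9 of 9 cases, with a median of 0.18, and fibroblast markers in 7 of 7, with a median of 0.41. Their part in the collagen values was not tested.

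Markers of cell types that make basement membrane gave no call with TAC. Those of smooth muscle cells and pericytes lay above 0 in 4 of 7 tested and below in 3, with a median of 0.02. Among these Abcc9, a potassium channel subunit, had -0.55 ± 0.15 (limma adjusted p = 0.213) and passed only without male TAC replicate 6 (-0.68, adjusted p = 0.0452), and smooth muscle actin (Acta2) had -0.44 ± 0.22 (limma adjusted p = 0.677). The list's summed intensity ranged from 389 to 426 in female sham, 333 to 416 in male sham, 303 to 394 in female TAC and 282 to 413 in male TAC hearts. Of the 9 endothelial markers tested (among them Pecam1 and Cdh5), 5 lay above and 4 below 0 in the averaged effect, with a median of 0.00. Their summed intensity ranged from 670 to 710 in female sham, 488 to 697 in male sham, 621 to 760 in female TAC and 521 to 781 in male TAC hearts. Of the 7 fibroblast markers tested, 5 lay above and 2 below 0, with a median of 0.11. Their sum ranged from 1431 to 1601 and 1118 to 1616 in female and male sham hearts, and from 1553 to 2266 and 1730 to 1934 in female and male TAC hearts, so the male groups did not overlap. Decorin (Dcn) made up most of that sum. Without it the male groups ran from 394 to 566 in sham and from 575 to 648 in TAC hearts, a narrower gap, and the female groups overlapped. The male mean of that sum without Dcn was 506 in sham and 602 in TAC hearts, and that of the marker Mgp alone was 54.8 and 123. The male sums of the upstream regulators listed below did not overlap either, at 422 to 509 in sham and 515 to 576 in TAC hearts. Their means were 454 and 549, and those of Ccn2 alone, a gene called below, were 63.9 and 133. Single genes thus weigh much in these sums, and no share over all probe sets was worked out for sums. Of single tested probe sets, 1.62% had every male TAC heart above every male sham heart. Among the fibroblast markers Mgp, matrix Gla protein, had 1.05 (limma adjusted p = 0.0982), and lumican (Lum) 0.57 (limma adjusted p = 0.0585). Thy1 lay on the other side at -0.29 ± 0.12 (limma adjusted p = 0.531), while Ddr2 had -0.03, Fbln1 0.06 and Pdgfra 0.11. Out of 26 other settings and left-out arrays, Mgp passed in 7, Lum in 4 and Dcn (0.51) in 3, quantile normalization and median centring among them. Some markers were on the array but too dim to be tested: Kdr (endothelial), Tcf21 and Fap (fibroblast), and Myh11 and Cnn1 (smooth muscle and pericyte). The part of these cell types in the Nid1 and Col4a1 values was not tested.

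Of 14 other basement membrane genes tested, 7 lay above and 7 below 0 and none passed, with a median of -0.01. Lama5, the laminin alpha-5 chain of mature endothelial and epithelial sheets, had the most negative change among them. It read 85.8 to 92.8 in female sham against 68.3 to 75.9 in female TAC, and 79.4 to 95.7 in male sham against 62.1 to 77.9 in male TAC hearts. Every TAC heart thus lay below every sham heart of its sex, as it did for 0.255% of all tested probe sets. The change was -0.31 ± 0.09 (limma unadjusted p = 0.00318, adjusted p = 0.261), and a further Lama5 probe set gave -0.29 ± 0.11 (limma adjusted p = 0.487), with female sham and TAC hearts that overlapped. Fibulin-2 (Fbln2), which binds laminin and nidogen, had 0.42 ± 0.12 (limma adjusted p = 0.236), with all TAC hearts above all sham hearts in both sexes, as in 0.429% of tested probe sets. Among the alternatives run, it passed only after each array was centred on its median (0.48, adjusted p = 0.0479). Sparc, a collagen-binding matricellular protein, had 0.37 ± 0.20 (limma adjusted p = 0.740). Col4a3, Col4a4, Lama1, Lama3, Nid2 and Smoc1 were too dim to be tested.

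Among genes that fold and crosslink collagen, 6 of 9 tested lay above 0, the median was 0.03 and none passed. The one of smallest p was the lysyl oxidase homologue Loxl1, with 0.52 ± 0.16 (limma adjusted p = 0.327). Among receptors for the sheet, 4 of 12 lay above 0, with a median of -0.04 and none past the threshold. The collagen receptor Ddr1 had -0.76 ± 0.22 (limma adjusted p = 0.242) and passed only when male TAC replicate 6 was left out (-0.98, adjusted p = 0.0272). Of the matrix proteases and their inhibitors, 5 of 10 lay above 0 and none passed, with Timp3, an inhibitor bound to the matrix, at 0.26.

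Calls were made in the list named interstitial collagens and in that of upstream regulators, 1 in each. Of 10 interstitial collagens 8 lay above 0, with a median of 0.15, and Col8a1 rose by 1.02 ± 0.17 (limma adjusted p = 0.00778). Col8a1 encodes a short-chain network collagen of vessel walls, not a fibrillar collagen, and was the only one of the 10 that passed. Its call was lost with no filter on dim probe sets (adjusted p = 0.0893), when same-numbered hearts of both sexes were blocked (0.0585) and without female TAC replicates 1 and 2, which were least correlated with the other arrays (0.134). Col1a1 and Col3a1, the fibrillar collagens of scar, had 0.44 ± 0.17 (limma adjusted p = 0.515) and 0.38 ± 0.17 (limma adjusted p = 0.612). Col1a2 was counted through its brighter probe set, at -0.03 ± 0.08, and its other one disagreed, at 0.63 ± 0.19 (limma adjusted p = 0.320). Of 8 upstream regulators 6 lay above 0, with a median of 0.11, and Ccn2, connective tissue growth factor, rose by 1.25 ± 0.18 (limma adjusted p = 0.00186). The log2 ratio of Col8a1 to Col4a2 within an array was higher by 0.92 in TAC than in sham hearts, and without each array in turn by 0.77 to 1.02. The ratio of Col8a1 to Col4a1 was higher by 0.75 and that of Col1a1 to Col4a2 by 0.34. Col8a1 was picked because it had risen, and these ratios are given with no test.

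**Figure D5:**
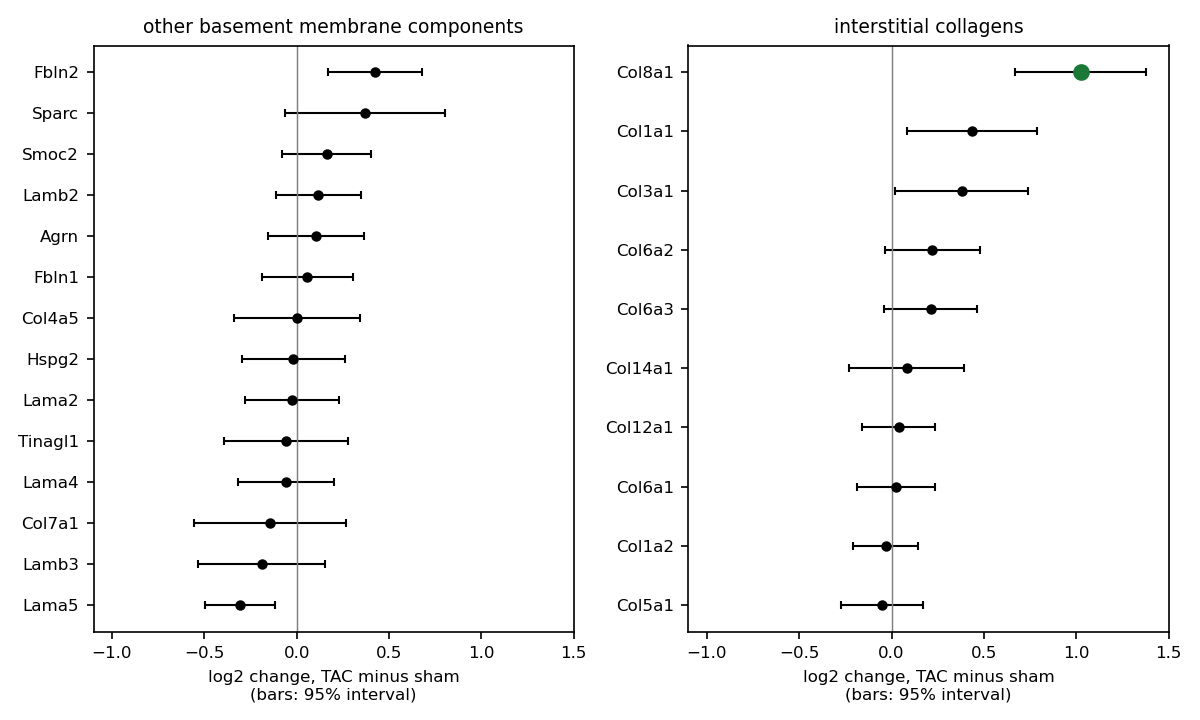
Averaged log2 change with TAC (TAC minus sham) and 95% interval for other basement membrane components (left) and interstitial collagens (right), 1 probe set per gene (the brighter of 2 for Col1a2, whose other one is not drawn); the green point passed an adjusted p of 0.05. Col8a1 at 1.02, a network collagen placed in the list on the right, is the only green point, and Lama5 at -0.31 is the lowest on the left.

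Across sham hearts, 5 of the genes were bright enough to be correlated with each other, which gave 10 pairs. Col15a1 and Nid1 were left out because fewer than 8 of the 9 sham arrays were above the floor. None of the pairs passed after adjustment. The pair of highest r was Col4a2 with Lamb1, at 0.59 (exact permutation p = 0.0975, adjusted p = 0.930) with a rho of 0.82 (exact permutation p = 0.0108, adjusted p = 0.108). Without the 2 arrays farthest from the median, r was 0.72 (exact permutation p = 0.0708).

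The genes whose log2 values followed each member most closely over all 15 arrays were found as a description, with no test. The arrays share overall signal, and the TAC hearts share their operation. Col4a1 was most like Mgp (r = 0.83), Loxl1 (0.82) and Aopep (0.82). Once group means were removed, its closest were Vti1a (0.90), Aopep (0.84) and Iqgap1 (0.82), so Mgp and Loxl1 were no longer among the closest 3. Col4a2 was most like Clcn5 (0.80), Cd27 (0.80) and Dcun1d2 (0.78), and after removal of group means Cd27 (0.90) and the connexin gene Gja1 (0.89) came first. Lamc1 followed Napa (0.92), Septin2 (0.89) and Rpn1 (0.89). Nid1 followed Myom1 (0.92), Pomp (0.90) and Tmsb4x (0.89), and Lamb1 followed Msi1 (0.79). Col15a1 followed Rnf34 (0.87) and Col18a1 followed Clic4 (0.83). Probe sets of the members themselves were left out of this search, so it cannot show whether members followed each other.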

How the data were processed

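Total RNA of 15 left ventricles was measured on 1-colour oligonucleotide arrays. The authors deposited probe-set intensities on a linear scale. The sources used here do not give their software, background correction or normalization. No scan or batch is given either, so none could be tested. The arrays were kept at their deposited level. The 66 control probe sets were left out, values were floored at 20 (the higher of 20 and the 30th percentile of 11.9) and converted to log2. Tests covered the brightest 60% of probe sets by mean log2 value. Flooring shrinks the changes of dim genes.

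Gene names came from the platform annotation, updated through a RefSeq gene table of GRCm38.p6 used for names. Of 12422 probe sets, 10833 had 1 symbol, 396 several and 1193 none. Probe sets ending in _f_at or _s_at may bind related transcripts.

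All 15 arrays entered 1 limma 3.58.1 model (lmFit, eBayes, in R 4.3.3) with 4 group means, with Benjamini-Hochberg adjustment over the 7453 tested probe sets and a threshold of 0.05. Errors after ± are SE. The arrays' number limits the precision. Ratios within an array and correlations were tested by exact permutation, two-sided. The script was tested on simulated data. Named genes were all probe sets of the members, and in each list those that passed or else up to 3 of smallest p, plus for each member the 3 most similar genes; the second probe sets of Lama5 and Col1a2 and the markers of cell types were named after their values were seen. Members, lists and tests were chosen with earlier results of these data known.

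Sham and TAC titles share numbers 1 to 6, and the sources used here do not say that same-numbered hearts were paired. Same-numbered deviations from group means correlated at 0.244, 0.270 and 0.117 in females and at 0.0641, -0.0828 and 0.0136 in males, so only the female numbers, which the titles give, passed the limit of 0.1. Alternatives varied the scaling (quantile normalization or median centring), the floor (the 10th percentile, or an offset of 20), the filter (none, or the top 40%), the variance model (trended and robust eBayes, array weights), the block on replicate number and the arrays used (1 sex, all but the 2 with the lowest correlation to the rest, all but each in turn).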

Additional observations from a re-analysis of the deposited data

Results flagged for a closer look

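Among 54 sets of 6 male sham arrays checked, 9 of them for the tested basement membrane probe sets and the rest for named and marker genes, 4 held an array that lay far from the other 5. Chance gives about 1 such array in 20 sets. Lamb1 (101948_at) read 49.9 on male sham replicate 7, where the other 5 ranged from 31.0 to 37.0; without that array the averaged Lamb1 change still did not pass. The pericyte gene Rgs5 read 15.5 on the same array, against 27.8 to 33.8. The invariant chain gene Cd74 read 302 on male sham replicate 8, against 125 to 173. Col1a1 read 65.5 on male sham replicate 6, against 106 to 119.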

How the results depend on the processing

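The member probe sets had 1234 fits over the alternatives and with each array left out, the dim ones entering only with no filter. Col15a1 and Nid1 were too dim for the filter that kept the top 40%. In these fits 0 passed in limma, and the lowest adjusted p was 0.235 (Col18a1 99638_at in females with array weights). The averaged changes of Col4a1, Col4a2, Col15a1, Lamc1, Nid1 and Col18a1 101882_s_at stayed above 0 in all of these, while Col18a1 99638_at and both Lamb1 probe sets crossed 0 in some. A value that passed neither before nor after was counted as keeping its result. Median centring moved the share of all tested probe sets above 0 from 41.8% to 56.2%, and 7 of the 9 stayed above 0.

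Counts over all probe sets moved more. The averaged effect had 24 calls, against 45 with quantile normalization, 45 with median centring, 12 with the lower floor, 13 with no filter and 68 with array weights. The 6 calls in females became 10 with trended and robust eBayes and 36 with array weights. The 10 calls in males became 18 with median centring, 3 with the lower floor, 6 with the offset, 4 with no filter and 16 with trended and robust eBayes. The difference between the sexes had 2 calls without the 2 least correlated arrays. The sham sex difference had 2 with no filter, 1 with trended and robust eBayes, 2 with array weights and 1 without those 2 arrays. Leaving out each array gave 12 to 29 averaged calls (12 without male TAC replicate 5), 2 to 8 in females (2 without female sham replicate 1) and 3 to 12 in males (3 without male TAC replicate 5), and 0 for the difference between the sexes, the sham sex difference and the correlations.

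With a replicate block in both sexes, the calls were 8 averaged, 3 in females and 3 in males, and the sham sex difference could not be estimated. With the replicate block in females alone, where same-numbered deviations correlated above 0.1, they were 23, 6 and 11. Neither block gave a call among the 9. The causes of these shifts were not tested. The 4 dim probe sets and the values near the floor limit what can be seen of Col15a1, Col18a1 and Nid1.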
